A study of Homo sapiens with 6 samples.

Results

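The transcripts of 47 genes of DNA damage signalling and repair were followed in PC-3 cells, an established human prostate cancer cell line, with and without an inducible tristetraprolin (TTP) transgene. The genes were chosen by name and function, from the kinases that sense damage to the enzymes of each repair pathway, and all 47 were found among the 22933 gene symbols of the authors' deposited table. RNA-Seq was performed on 6 samples, 3 in each group. Cells of both groups carried the rtTA2 transactivator from a pRetroX-Tet-On-Advanced retrovirus, survived G418 selection, expressed tdTomato from the PGK promoter of a second retrovirus, and spent 4 h in 300 ng/ml doxycycline (Dox) before collection. The tdTom group had no further transgene, whereas in the TTP-tdTom group the same retrovirus also held TTP behind the Dox-responsive Tight promoter, so that both groups were exposed to rtTA2 and Dox. Both were populations of 1 cell line sorted for tdTomato, and whether the 3 samples of a group were separate cultures is not given in the sources used here.

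DNA breaks are sensed by the MRE11-RAD50-NBN complex, which activates the kinase ATM, while single-stranded DNA at stalled forks recruits ATR through its partner ATRIP. The checkpoint kinases CHEK1 and CHEK2 pass the signal on to the cell cycle, and breaks are then mended by homologous recombination, which copies an intact sister, or by end joining, which ligates the ends. Other damage and mispairing are handled by pathways of their own. The Fanconi anaemia proteins act on crosslinks, the mismatch enzymes on mispaired bases and loops, and the base excision and nucleotide excision enzymes on altered bases. TTP, a zinc finger protein, binds AU-rich stretches near the end of many short-lived mRNAs and recruits the enzymes that shorten their poly(A) tails.

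For each locus the table gives a single FPKM per group (fragments scaled to the length of the transcript and to the size of the library), computed by the authors, so that the values of single samples were not analysed here, no spread between replicates can be given, and no difference between the groups was tested. The labels state the depth that the sequencing aimed for, but the number of fragments behind each value is unknown, since the FPKM hold no counts and their low values showed no step worth 1 fragment. ZFP36, the gene that encodes TTP, lies at chr19:39897487-39900052 in GRCh37 and had an FPKM of 5.56 in tdTom cells and 5.54 in the group labelled TTP-tdTom, so the table does not show the transgene at this locus and the groups are named here by their labels. It was not analysed here whether transgene reads could count towards ZFP36. Of 5 epithelial markers, KRT8, KRT18, KRT19 and EPCAM lay between 15.1 and 98.2 FPKM and CDH1 below 0.4 in both groups. The 4 prostate luminal markers summed to 3.47 and 4.00 FPKM, and the 7 leukocyte and endothelial markers were each below 0.8. Of 4 fibroblast markers, COL1A1 had 4.34 and 4.56 FPKM, COL3A1 had 2.46 in tdTom cells and was listed at 0 in the other group, COL1A2 was listed at 0 in tdTom cells and had 1.38 in the other group, and PDGFRB stayed below 0.7. Over the 12511 named genes with a mean FPKM of at least 1 over the groups and a value above 0 in both, the median log2 ratio of TTP-tdTom over tdTom was -0.24. A shift of the whole scale cannot be told apart from a fall shared by most genes in such values, and single genes are therefore also placed among all genes below.

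As a group, the repair genes were about as much lower in the group labelled TTP-tdTom as the average gene. All 47 had a mean FPKM of at least 1. As deposited, 43 of the 47 were lower, whereas 79.9% of all genes tested were lower by any amount. Relative to the median gene, 24 of the 47 were lower. At least 1.5-fold lower were 9 of the 47, or 19.1%, namely WRN, CHEK1, FANCB, XRCC4, FANCM, LIG4, BARD1, FANCC and ATR. Across all genes tested 22.7% were that much lower, so that the share of the repair genes was near the background. None of the 47 was at least 1.5-fold higher, against 2.37% of all genes. Only WRN, 1 of 47 or 2.13%, was at least 2-fold lower, against 8.30% of all genes. The median log2 fold change of the 47 genes was -0.25, with a range from -1.08 for WRN to 0.29 for FANCE, and the middle of the list was narrower than that of all genes, with quartiles of -0.47 and -0.12 against -0.54 and -0.047. ATR lay just inside the 1.5-fold limit at a log2 fold change of -0.61, and ATM just outside it at -0.57. Under other scalings of the same values, which move every gene alike, the number lower by any amount lay between 24 and 47 of 47. The number at least 1.5-fold lower lay between 2 and 22. The 24 came from centring, which sets the median gene to 0. The 47 came from rescaling to the same sum over named genes, with a median over all genes of -0.54. After centring on the median gene, 4.26% of the repair genes were at least 1.5-fold lower, against 13.3% of all genes. After that rescaling it was 46.8% against 44.1%. The share of the repair genes was thus below that of all genes under centring and near it under that rescaling. The sum over named genes rests on 1 row shared by 4 symbols, with 36.1 FPKM in tdTom cells and 50289 in the group labelled TTP-tdTom. With each named locus counted once, 10.6% of the repair genes were at least 1.5-fold lower, against 20.3% of all genes.

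**Figure D1:**
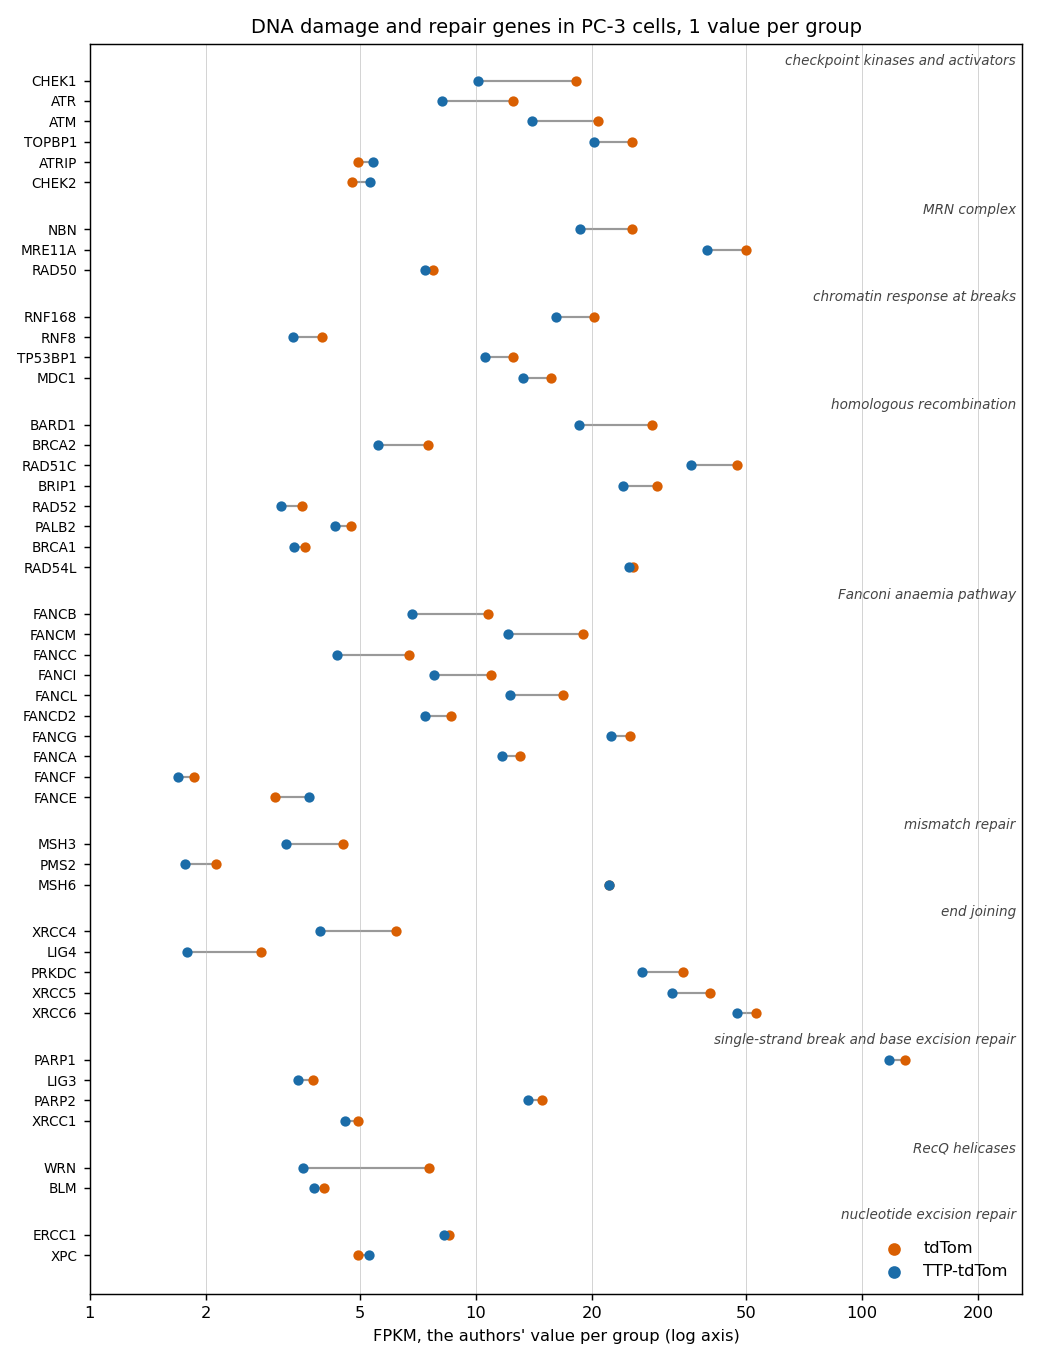
Each row is 1 gene, grouped by role, with its FPKM in tdTom cells (orange) and in the group labelled TTP-tdTom (blue) on a log axis, 1 value per group and no error bar. In 43 of the 47 rows the blue point lies left of the orange one, and the widest gap is that of WRN, from 7.58 to 3.57 FPKM.

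**Figure D2:**
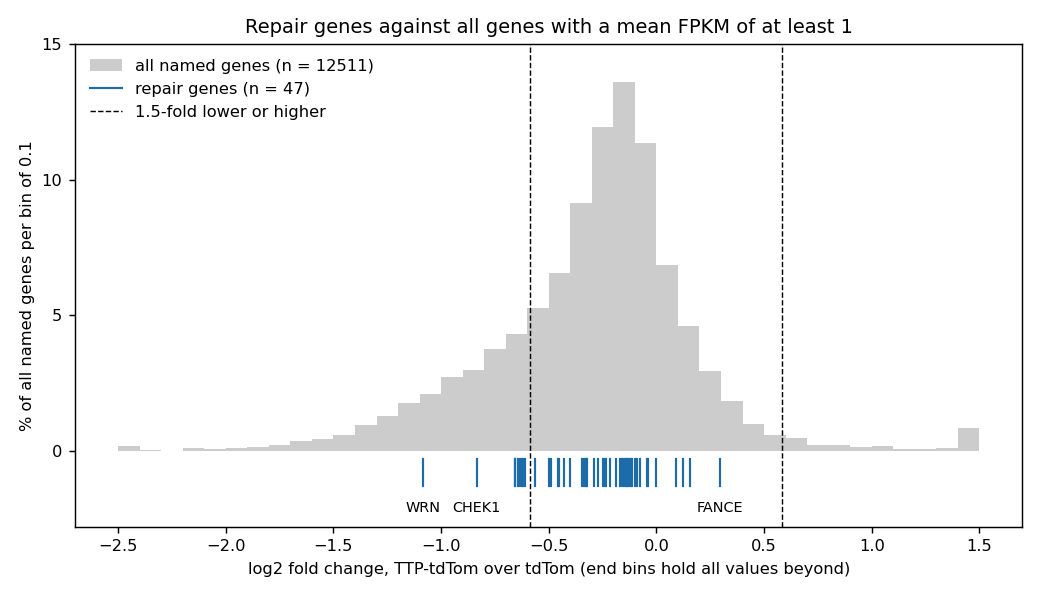
Grey bars give the percentage of the 12511 named genes in each bin of the log2 fold change (TTP-tdTom over tdTom), blue ticks the 47 repair genes, and dashed lines a change of 1.5-fold. The ticks sit under the bulk of the bars, with 9 left of the lower line and 0 right of the upper one.

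Because TTP recognises AU-rich elements, the transcript strand was searched for the heptamer UAUUUAU, a core of such elements, over the longest 3′UTR that GENCODE release 29 gives a gene. It was present in 15 of the 47 repair genes, or 31.9%, against 36.2% of the 11478 tested genes with an annotated 3′UTR. The windows below are shown because they stand on transcripts that differed to unlike extents: CHEK1, FANCM and BARD1 were among the 9 genes at least 1.5-fold lower, FANCL lay between, and RAD50 and MSH6 hardly differed between the groups. Capitals mark the heptamer, each line runs 5′ to 3′, and the coordinates are those of GRCh38, in which the sequences are annotated.
CHEK1, first site, base 1198 of a 3′UTR of 1827 bases, chr11:125656507-125656535, + strand: caaaccuguuuUAUUUAUuugaaccuauu
CHEK1, other site, base 1590, chr11:125656899-125656927, + strand: gcucugacauuUAUUUAUcugaacacugg
FANCM, base 132 of 882, chr14:45200129-45200157, + strand: guauacauuuuUAUUUAUagauuauagaa
BARD1, base 1684 of 3030, chr2:214726975-214727003, - strand: uugucauuuuuUAUUUAUaacagacuuua
FANCL, first site, base 241 of 522, chr2:58159507-58159535, - strand: cuguggaagugUAUUUAUaccaagaugga
FANCL, other site, base 469, chr2:58159279-58159307, - strand: aguuauccaagUAUUUAUuuuguguagug
RAD50, base 3415 of 3980, chr5:132645768-132645796, + strand: gagaccuggagUAUUUAUauaacaacuug
MSH6, base 2710 of 3241, chr2:47809559-47809587, + strand: cauauugcauaUAUUUAUagguauagcag
A match is a description of the letters, not a site bound by TTP in these cells. All loci given below are those of the deposited table, in GRCh37, and were not converted.

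Of the 6 checkpoint genes, CHEK1 and ATR were at least 1.5-fold lower, a count too small to set beside the 22.7% of all genes. CHEK1, which blocks entry into mitosis when replication stalls and lies at chr11:125494990-125550793, had an FPKM of 18.1 in tdTom cells and 10.2 in the group labelled TTP-tdTom, a log2 fold change of -0.84. CHEK2, its counterpart downstream of ATM, had 4.77 and 5.32 FPKM, a log2 fold change of 0.16. The lower value of CHEK1 was therefore not shared by CHEK2, which was among the 4 repair genes with the higher value in the group labelled TTP-tdTom. ATR, the apical kinase of replication stress (chr3:142167738-142297668), had 12.5 FPKM in tdTom cells and 8.18 in the group labelled TTP-tdTom. Its log2 fold change of -0.61 was such that 21.6% of all genes tested were lower still. ATM, the apical kinase of DNA breaks, had 20.7 and 14.0 FPKM, a log2 fold change of -0.57. ATRIP, which brings ATR to DNA, had 4.96 and 5.40 FPKM, but its row of the table also carries TREX1, so that the value belongs to both genes. TOPBP1, an activator of ATR, had 25.4 and 20.3 FPKM. Its log2 fold change of -0.33 was nearer to the median gene than those of ATM and ATR.

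In the MRE11-RAD50-NBN complex, NBN, the subunit that binds ATM, had 25.4 FPKM in tdTom cells and 18.5 in the group labelled TTP-tdTom, a log2 fold change of -0.45. The nuclease MRE11 (MRE11A in the table) had 49.9 and 39.6 FPKM, a log2 fold change of -0.34. RAD50, the ATPase that tethers the ends, had 7.76 and 7.36 FPKM, a log2 fold change of -0.076. None of the 3 subunits was lower by 1.5-fold, a count too small to set beside the 22.7% of all genes. RAD50 kept 94.9% of its tdTom value where NBN kept 73.1%.

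The 4 genes of the chromatin response at breaks lay close together, with log2 fold changes from -0.33 to -0.23. The adaptor MDC1, which reads the histone mark made by ATM, had 15.6 FPKM in tdTom cells and 13.3 in the group labelled TTP-tdTom. The ubiquitin ligase RNF8 had 3.99 and 3.36 FPKM. RNF168, the ligase that extends its signal, had 20.2 and 16.1 FPKM. TP53BP1, which reads that signal and favours end joining, had 12.5 and 10.6 FPKM. All 4 differed from the median gene by less than 0.1 on the log2 scale.

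Among the 8 genes of homologous recombination, 1 was at least 1.5-fold lower, BARD1, where 22.7% of all genes were. BARD1, the obligate partner of BRCA1 (chr2:215590991-215674446), had 28.5 FPKM in tdTom cells and 18.5 in the group labelled TTP-tdTom, a log2 fold change of -0.62. BRCA1 itself had 3.61 and 3.37 FPKM, a log2 fold change of -0.099, so that the partners differed in both their level and their change. BRCA2, which loads the recombinase, had 7.52 and 5.59 FPKM, a log2 fold change of -0.43. PALB2, the bridge between BRCA1 and BRCA2, had 4.74 and 4.31 FPKM. These levels were all far below that of BARD1. RAD51C, a recombinase paralog and the fourth most abundant of the 47 transcripts, had 47.4 and 36.0 FPKM. The helicase BRIP1 had 29.5 and 24.1 FPKM and the annealing protein RAD52 had 3.55 and 3.12. Their log2 fold changes of -0.29 and -0.19 were near that of the median gene. RAD54L, a motor protein that acts during strand exchange, differed least, with 25.6 and 24.9 FPKM and a log2 fold change of -0.041.

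The Fanconi anaemia pathway held 3 of the 9 genes that were at least 1.5-fold lower, among 10 members, a share near the 22.7% of all genes. The core complex subunit FANCB (chrX:14859790-14891207) had 10.7 FPKM in tdTom cells and 6.81 in the group labelled TTP-tdTom, a log2 fold change of -0.66. The DNA translocase FANCM (chr14:45605032-45670093), which anchors the core complex, had 18.9 and 12.1 FPKM, a log2 fold change of -0.64. FANCC (chr9:97860814-98080085), a further core subunit, had 6.72 and 4.38 FPKM, a log2 fold change of -0.62. The catalytic subunit FANCL, whose ubiquitin ligase activity marks FANCI and FANCD2, had 16.8 and 12.3 FPKM, a log2 fold change of -0.45. All 4 of these subunits were lower relative to the median gene as well. FANCI had 10.9 and 7.80 FPKM, a log2 fold change of -0.49, and FANCD2 had 8.60 and 7.40, a log2 fold change of -0.22. FANCF, the least abundant of the 47 transcripts, had 1.86 and 1.69 FPKM. It and FANCA were nearer to 0 than the median gene, at log2 fold changes of -0.14 and -0.15. FANCG had 25.1 and 22.3 FPKM in a row that also carries VCP and cannot be given to FANCG alone. FANCE stood at the other end of all 47 genes, with 3.02 FPKM in tdTom cells and 3.71 in the group labelled TTP-tdTom, a log2 fold change of 0.29. The members of 1 core complex thus covered most of the range of the whole list.

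The partners of mismatch recognition also parted. MSH3, which recognises larger loops, had 4.54 FPKM in tdTom cells and 3.21 in the group labelled TTP-tdTom, a log2 fold change of -0.50. MSH6, which recognises single mismatches, had 22.2 FPKM in tdTom cells and 22.1 in the group labelled TTP-tdTom. PMS2, an endonuclease subunit that acts after recognition, had 2.13 and 1.76 FPKM. PMS2 has near-identical copies in the genome, as CHEK2, FANCD2 and BRCA1 do in part, and how the authors' counting divided their reads is not given in the sources used here.

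In end joining, the ligation factors had lower ratios than the factors that hold the ends. XRCC4 (chr5:82373317-82649579), the scaffold of the ligase, had 6.21 FPKM in tdTom cells and 3.94 in the group labelled TTP-tdTom, a log2 fold change of -0.65. LIG4 (chr13:108859547-108870716), the ligase itself, had 2.77 and 1.79 FPKM, a log2 fold change of -0.63. Both kept less than 65% of their tdTom value, but with a pseudocount of 1 FPKM their log2 fold changes were -0.54 and -0.44, within 1.5-fold. The Ku subunit XRCC5 had 40.4 and 32.3 FPKM, and its partner XRCC6 had 53.0 and 47.5. PRKDC, the kinase that Ku recruits, had 34.3 and 27.0 FPKM. These 3 had log2 fold changes from -0.34 to -0.16, and their levels were several times those of XRCC4 and LIG4. The GC content of the transcript was 35.5% for XRCC4 and 36.2% for LIG4. It was 44.2% for XRCC5, 45.3% for PRKDC and 50.7% for XRCC6, and its part in this contrast was not tested.

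The 4 genes of single-strand break and base excision repair varied least. PARP1, which senses nicks and was the most abundant of the 47 transcripts, had 128.9 FPKM in tdTom cells and 117.1 in the group labelled TTP-tdTom. PARP2 had 14.8 and 13.7 FPKM. The scaffold XRCC1 had 4.94 and 4.57 FPKM, and its ligase LIG3 had 3.79 and 3.47. Their log2 fold changes lay between -0.14 and -0.11, each less negative than that of the median gene.

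Of the 2 RecQ helicases, which unwind recombination intermediates, WRN on chromosome 8 was the lowest of all 47 genes. Its FPKM was 7.58 in tdTom cells and 3.57 in the group labelled TTP-tdTom, so that 47.1% of the tdTom value was left and only 6.49% of all genes tested were lower still. BLM had 4.05 and 3.80 FPKM, a log2 fold change of -0.091. In nucleotide excision repair, the damage sensor XPC had 4.96 and 5.29 FPKM and the endonuclease subunit ERCC1 had 8.52 and 8.26. Neither differed by more than 0.1 on the log2 scale.

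A wider list of 106 other repair genes, drawn up by role, gave a similar picture. All 106 were in the table, 3 of them under an older symbol, and 104 had a mean FPKM of at least 1. At least 1.5-fold lower were 26 of the 104, or 25%, near the 22.7% of all genes, and 0 were that much higher, against 2.37% of all genes. The median log2 fold change was -0.26. The largest differences were those of RMI1, a partner of BLM, with 6.41 FPKM in tdTom cells and 2.30 in the group labelled TTP-tdTom, and of RPA3, a subunit of the single-strand binding complex, with 9.63 and 4.23 in a row shared with an uncharacterised locus. SMC5, the core of a cohesin-like complex, had 20.2 and 9.17 FPKM. The translocase HLTF had 99.8 and 49.7 FPKM, and the glycosylase TDG had 15.4 and 7.92. At the upper end, the nuclease scaffold SLX4 had 1.91 and 2.39 FPKM, and the glycosylases NTHL1 and SMUG1 had log2 fold changes of 0.30 and 0.28. By role, the genes at least 1.5-fold lower were 4 of 10 of translesion synthesis, 8 of 22 of recombination and junction resolution, 2 of 5 of the SMC5/6 complex, 2 of 6 Fanconi partners and 2 of 7 of the replication checkpoint. They were 4 of 21 of base excision and single-strand break repair, 2 of 11 of the break response, 2 of 13 of nucleotide excision repair, 0 of 4 of end joining, 0 of 3 of direct reversal and 0 of 2 of mismatch repair. With 22.7% of all genes that much lower, such small roles cannot be set apart by these counts.

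Within the 47 genes, the change followed the base composition of the transcript. The GC content of the longest coding transcript had a median of 44.0% in the repair genes and 48.5% over all tested genes with a 3′UTR. Of the 12 repair genes at or below 40% GC, 6, or 50%, were at least 1.5-fold lower, against 59.2% of all genes of that class, and the median log2 fold change was -0.59. Above 40% and up to 45% it was -0.29 for 14 genes, above 45% and up to 50% it was -0.16 for 10 genes, and above 50% it was -0.11 for 11 genes. Only ATR, CHEK1 and FANCC were at least 1.5-fold lower above 40% GC, and ATR stood at 40.02%. Above 40% and up to 45% GC this was 7.14% of the repair genes, against 35.5% of all genes. Above 45% and up to 50% it was 10% against 19.8%, and above 50% it was 9.09% against 6.33%. The medians had the same order over all genes, at -0.70, -0.42, -0.26 and -0.13 in these classes. In each class the median of the repair genes was less negative than that of all genes. Above the median of all genes in their own class lay 35 of the 47, or 74.5%, where 50% of all genes lie. In the wider list it was 59 of the 104, or 56.7%, nearer to the share of all genes. Across the 47 genes Spearman's rho between GC content and log2 fold change was 0.62, and across 11478 genes it was 0.48. These are correlations across genes measured in the same libraries, which do not count as independent replicates. Base composition also bears on library preparation and sequencing, and its part in these differences was not tested.

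**Figure D3:**
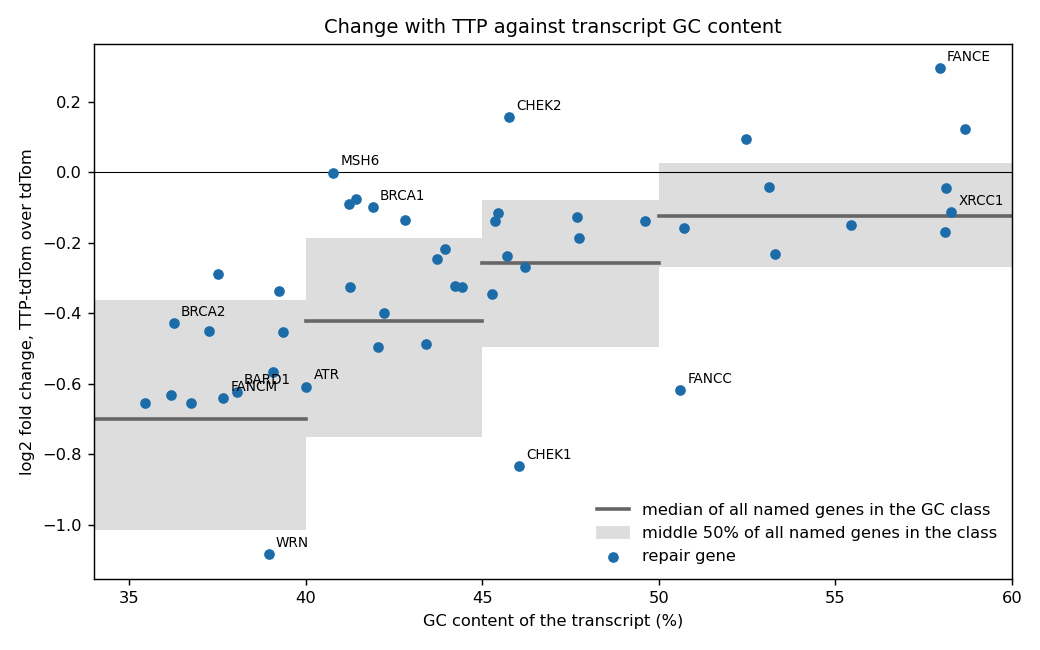
Points are the 47 repair genes by the GC content of their transcript (%) and their log2 fold change (TTP-tdTom over tdTom), grey lines the median and grey bands the middle 50% of all named genes in 4 classes of GC content. The points rise from left to right with the grey lines and 35 of the 47 lie above them. WRN, CHEK1 and FANCC are among the 12 that do not.

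The AU-rich heptamer did not order the repair genes in this way. The 15 genes with UAUUUAU in the longest 3′UTR had a median log2 fold change of -0.19, and the 32 without it one of -0.31. Over all tested genes the medians ran the other way, -0.45 for the 4150 genes with the heptamer and -0.17 for the 7328 without it, as they did in the wider list, -0.60 for 27 genes and -0.21 for 77. These lists also differed in other features, whose part in the contrast was not tested. Over all genes the median GC content was 43.9% with the heptamer and 52.0% without it, and the median 3′UTR length 2631.5 and 931 bases. In the repair genes these were 42.8% and 44.1%, and 1314 and 1079.5 bases. In the wider list they were 41.3% and 49.4%, and 1784 and 934 bases. Among the repair genes, 3 of 15 with the heptamer, or 20%, and 6 of 32 without it, or 18.8%, were at least 1.5-fold lower, against 39.3% and 13.6% of all genes. In the 3′UTR of the longest coding transcript, the shares were 15.4% of 13 repair genes with it and 20.6% of 34 without it. This was the opposite order for the repair genes, whereas over all genes the shares were 39.91% with it and 15.03% without it. In the wider list they were 60.87% and 14.81%. Of the windows printed above, those of CHEK1, FANCM and BARD1 stood in transcripts that were at least 1.5-fold lower, while those of RAD50 and MSH6 stood in transcripts with log2 fold changes of -0.076 and -0.0011. WRN, the gene with the lowest ratio, had 0 copies in a 3′UTR of 667 bases, and FANCB had 0 in 160 bases. CHEK1 carried its copies, 2 in number, only in a longer 3′UTR, since the 3′UTR of its longest coding transcript held 0. With the shorter letters AUUUA, present in 40 of the 47 genes and 74.2% of all, the medians were -0.28 with and -0.16 without, against -0.31 and -0.11 over all genes. At least 1.5-fold lower were 7 of 40 with AUUUA, or 17.5%, and 2 of 7 without it, or 28.6%, against 29.2% and 4.74% of all genes.

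**Figure D4:**
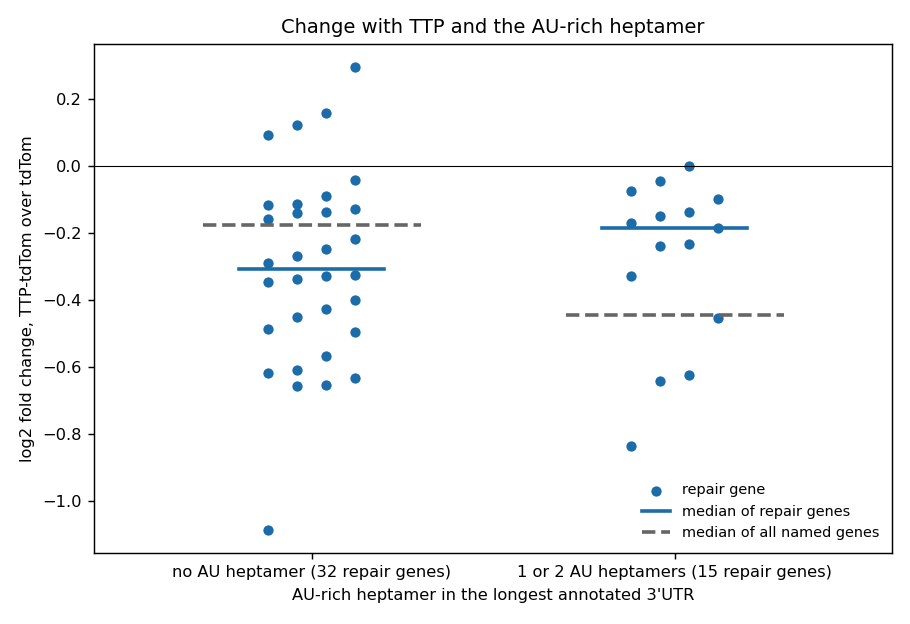
Points are the 47 repair genes by the presence of the AU-rich heptamer in the longest annotated 3′UTR and by their log2 fold change (TTP-tdTom over tdTom), blue lines their medians and dashed grey lines the medians of all named genes. The blue line is lower on the left, at -0.31 against -0.19, and the grey line is lower on the right, at -0.45 against -0.17.

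The level of a transcript did not set the genes with lower values apart in 1 direction. Of 12 repair genes with a mean FPKM from 1 to below 5, 1 was at least 1.5-fold lower, of 22 from 5 to below 20 it was 7, and of 13 at 20 or above it was 1. Over all genes the shares were 18.4%, 27.5% and 21.3%. The transcripts of the repair genes were long, with a median of 4580 bases against 3098 for all genes, and Spearman's rho between length and log2 fold change was -0.11 across the 47 genes, -0.19 across all genes and -0.25 across the wider list.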

How the data were processed

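According to the methods and the submitters' processing notes, strand-specific libraries (NuGen Ovation Encore Complete) were sequenced in paired-end runs, aligned by the authors with TopHat2 2.0.13 to Hs37D5 (GRCh37 with decoy sequence) and compared by gene with Cufflinks 2.2.1. The deposited FPKM values, 1 per group at 406165 loci, were computed by the authors from 3 samples per group. Further columns with fold changes, test statistics and p- or q-values hold the comparison made by the authors and were not used. The design allowed for values per sample; as there are none in this table, the fits across samples were not run. Where a symbol had several loci, the one listing the largest number of RefSeq names was taken, then the highest FPKM. Log2 ratios were taken without a pseudocount at a mean FPKM of at least 1. Longest 3′UTRs, transcripts and GC content came from GENCODE release 29, matched by symbol or RefSeq synonym for 91.7% of tested genes. Members and lists were chosen with earlier results of these data known. Values were given for ATM, ATR, BRCA1, BRCA2, the extremes of each role, every gene past 1.5-fold and all genes of roles with 5 or fewer, and, of the wider list, for the 5 lowest and 3 highest; values of further members were added after they were seen. A symbol sharing its row with another took that row's value. Alternatives were other pseudocounts, minima, loci, scalings and thresholds. The functions were tested on simulated data. Python 3.11.15, numpy 2.4.6, pandas 2.3.3 and matplotlib 3.10.9 were used.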

Additional observations from a re-analysis of the deposited data

How the results depend on the processing

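No paired analysis was possible because the deposited table holds 1 value per group, and for the same reason no replicate could be left out. The number of repair genes at least 1.5-fold lower, 9 of 47, was 5 with a pseudocount of 1 FPKM (10.6% against 18.8% of all genes), 2 after centring on the median gene (4.26% against 13.3%), 22 after rescaling to the same FPKM sum over named genes (46.8% against 44.1%), 1 at a threshold of 2-fold (2.13% against 8.30%) and 21 where at most 80% of the tdTom value had to be left (44.7% against 40.5%). With rescalings that count each locus once, chosen after seeing the data, it was 5 over named loci (10.6% against 20.3%) and 2 over protein-coding loci (4.26% against 13.8%). CHEK1 and WRN were in the list under each of these settings except that WRN alone passed at 2-fold, and no setting put a repair gene 1.5-fold higher. Over all genes the number higher ran from 47 of 8060 at a mean FPKM of at least 5 to 2725 of 20805 with no minimum FPKM. The sum over named genes rests on 1 row shared by 4 symbols, SNHG12 among them, with 36.1 FPKM in the tdTom group and 50289 in the group labelled TTP-tdTom. The median log2 fold change, -0.25, was -0.24 and -0.22 with pseudocounts of 0.1 and 1, -0.33 at a mean FPKM of at least 5 (35 genes), -0.0086 after centring and -0.54 after rescaling. With settings chosen after seeing the data it was -0.20 over named loci, -0.027 over protein-coding loci and -0.27 for the 45 genes alone in their row. Minus the median of all genes it lay between -0.096 and -0.0059. The wider list's 26 genes (25% against 22.7% of all genes) became 20 with a pseudocount of 1 (19.2% against 18.8%), 18 over named loci (17.3% against 20.3%), 10 after centring (9.62% against 13.3%) and over protein-coding loci (9.62% against 13.8%), 44 after rescaling over named genes (42.3% against 44.1%), 4 at 2-fold (3.85% against 8.30%) and 42 at the 80% limit (40.4% against 40.5%). The difference in medians with and without the heptamer, 0.12, was reversed to -0.12 with AUUUA. The choice of locus moved 0 of the 47 genes across the 1.5-fold limit, a pseudocount of 1 moved 4 (XRCC4, LIG4, FANCC and ATR) and the rescaling 13. After centring, and over protein-coding loci, CHEK1 and WRN were the 2 genes left.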

Other observations

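A total of 8 repair genes had further rows in the table, 10 rows in all, each with an FPKM of at most 1.68 in either group. The further row of CHEK1 went the other way from its main row, with 0.497 FPKM in tdTom cells and 1.45 in the group labelled TTP-tdTom. FANCD2 had a row listed at 0 in tdTom cells and at 1.34 in the group labelled TTP-tdTom, and another with 0.777 and 0.276. The values of such low rows have no error here.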
